A study of Mus musculus with 23 samples.

Results

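The genes described here encode the NF-κB subunits (Nfkb1, Nfkb2, Rel, Rela and Relb) and the IκB proteins that bind them (Nfkbia, Nfkbib, Nfkbie, Nfkbiz and Bcl3). They were chosen as the array probes whose accession maps to 1 of these 10 names. All 10 were found, on 14 probes, among 26512 genes and other entries on 33391 probes with an accession. Messenger RNA of macrophages from the bone marrow of male C57BL/6 mice was measured on 23 one-colour Agilent arrays. The question was what the kinases MK2 and MK3, which act downstream of p38, do in the early response to LPS, a bacterial cell wall component. The macrophages had been grown from marrow of the femur for 9 days with 10 ng/ml M-CSF and then received 100 ng/ml LPS or medium alone for 120 min. Wild type (wt) cells with LPS and with medium had 4 arrays each, from mice of 12 and 13 weeks. MK2-/- cells lacked MK2 and had 4 arrays with LPS, from mice of 10 to 13 weeks, and 3 with medium, from mice of 10, 11 and 13 weeks. MK2/3-/- cells lacked both kinases and had 4 arrays with each treatment, from mice of 11 to 14 weeks. All groups shared strain, sex, M-CSF and the time of 120 min, and each genotype lay on its own slide, so genotype and slide cannot be told apart, nor can treatment and the position on the slide.

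NF-κB factors are dimers of Rel-family subunits that rest in the cytoplasm in the hold of IκB proteins. Bacterial products activate the IκB kinase, which marks IκB for ubiquitination and breakdown, and the freed dimers enter the nucleus. Several IκB and subunit genes are themselves NF-κB targets in macrophages, which closes feedback loops.

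Signals are log2 intensities after quantile normalization, and a level holds for its own probe and is not set against that of another probe. Between 47.5% (MK2/3-/- medium array 1) and 69.1% (MK2/3-/- medium array 2) of probes lay well above background, and the other 21 arrays lay between 48.5% and 60.8%. Each of the members except Rel was well above background on all 23 arrays. Rel was so on 22, with 1 MK2/3-/- medium array below. Mapkapk2 (MK2) was at 14.84, 15.37, 14.19 and 14.67 in wt cells after LPS, at 12.00, 11.89, 11.63 and 12.30 in MK2-/- and at 11.54, 11.65, 11.58 and 12.26 in MK2/3-/-. Mapkapk3 (MK3) was at 13.77 to 14.35 in wt after LPS, 13.80 to 14.10 in MK2-/- and 10.36 to 10.91 in MK2/3-/-. So Mapkapk2 was lower in both knockouts, and Mapkapk3 in MK2/3-/-, than in the genotypes that keep the gene, with no overlap, and the files do not say whether either probe lies in the deleted part of its gene.

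Of the macrophage markers, 7 of 8 were matched to a probe by accession (Cd68 was not), and Csf1r, Adgre1, Itgam, Lyz2, Fcgr1, Mertk and Cd14 were each above background on all 23 arrays. With LPS, 1 of the 7 was called higher (Cd14) and 2 lower (Fcgr1 and Mertk) in wt, 1 and 2 in MK2-/-, and 1 and 0 in MK2/3-/-. The call of Cd14 held under all 38 alternatives, and in wt and MK2-/- that of Fcgr1 was lost under 4 and 4 and that of Mertk under 7 and 20. Stromal markers (Col1a1, Col1a2, Dcn and Pdgfrb, 4 of 4 measured) varied widely between cultures, and Col1a2 was above background on all 23 arrays. Their summed linear signal was 86720, 4010, 18890 and 34930 on the wt LPS arrays and 105200, 4472, 19680 and 35690 on the wt medium arrays. In MK2-/- cells it was 2775, 1663, 7626 and 32050 with LPS and 2345, 1247 and 34310 with medium. In MK2/3-/- cells it was 986, 2007, 12200 and 48350 with LPS and 520, 1902, 10240 and 58300 with medium. The sum thus went with the culture and hardly with the treatment, and its group mean was higher in wt. With LPS 0, 0 and 1 of the 4 genes were called in wt, MK2-/- and MK2/3-/-. The 1 was Pdgfrb, by 3.23 with overlapping groups, named after its values were seen, and its call was lost under 10 of 38 alternatives. Among dendritic cell markers (4 of 4 measured) the sum was 975 to 2044 on LPS arrays of all genotypes and 95.3 to 343 on medium arrays. Zbtb46 made up most of the sum on each LPS array and was the only 1 of the 4 genes called, by 5.49 in wt, 5.40 in MK2-/- and 5.77 in MK2/3-/-. The part of these markers in the members' change was not tested. In total RNA of a culture, fewer cells of a type and less RNA per cell cannot be told apart. Of 5 granulocyte markers measured, Elane was above background on 23 arrays, of 4 T cell markers Cd3e on 23, of 3 erythroid markers Epor on 22, of 3 mast cell markers Cpa3 on 1 and of 3 endothelial markers Kdr on 23. The endothelial sum was 68.32 to 166.7 in medium and 106.7 to 646.1 with LPS in wt, 64.88 to 191 and 111.8 to 1063 in MK2-/-, and 62.1 to 321 and 112.2 to 775 in MK2/3-/-. These ranges overlap and array 2 was the highest LPS array of each genotype, but within cultures the sum was higher with LPS in 11 of 11, by 1.11 to 5.57 times. Kdr made up most of the endothelial sum on each array, and the other markers of that list were above background on 9 and 1 arrays. Of the 3 genes 0 were called in each genotype.

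The first question was whether the genes of the NF-κB system respond to LPS at 120 min in each genotype. All 10 members rose in wt cells, 10 in MK2-/- and 10 in MK2/3-/- cells, at a limma p adjusted over all genes under 0.05. Of all genes, 8.17%, 8.4% and 11.9% were called higher. The members' median log2 change was 3.19, 3.16 and 3.16, beside 0.01, -0.01 and -0.02 for all genes. For each member and genotype, every LPS array lay above every medium array, as for 11.3%, 16% and 11.8% of all genes. The exact two-sided permutation p was then 0.0286, the smallest that 4 against 4 or 4 against 3 arrays allow. This permutation did not keep the pairing of LPS and medium arrays from the same culture.

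**Figure D1:**
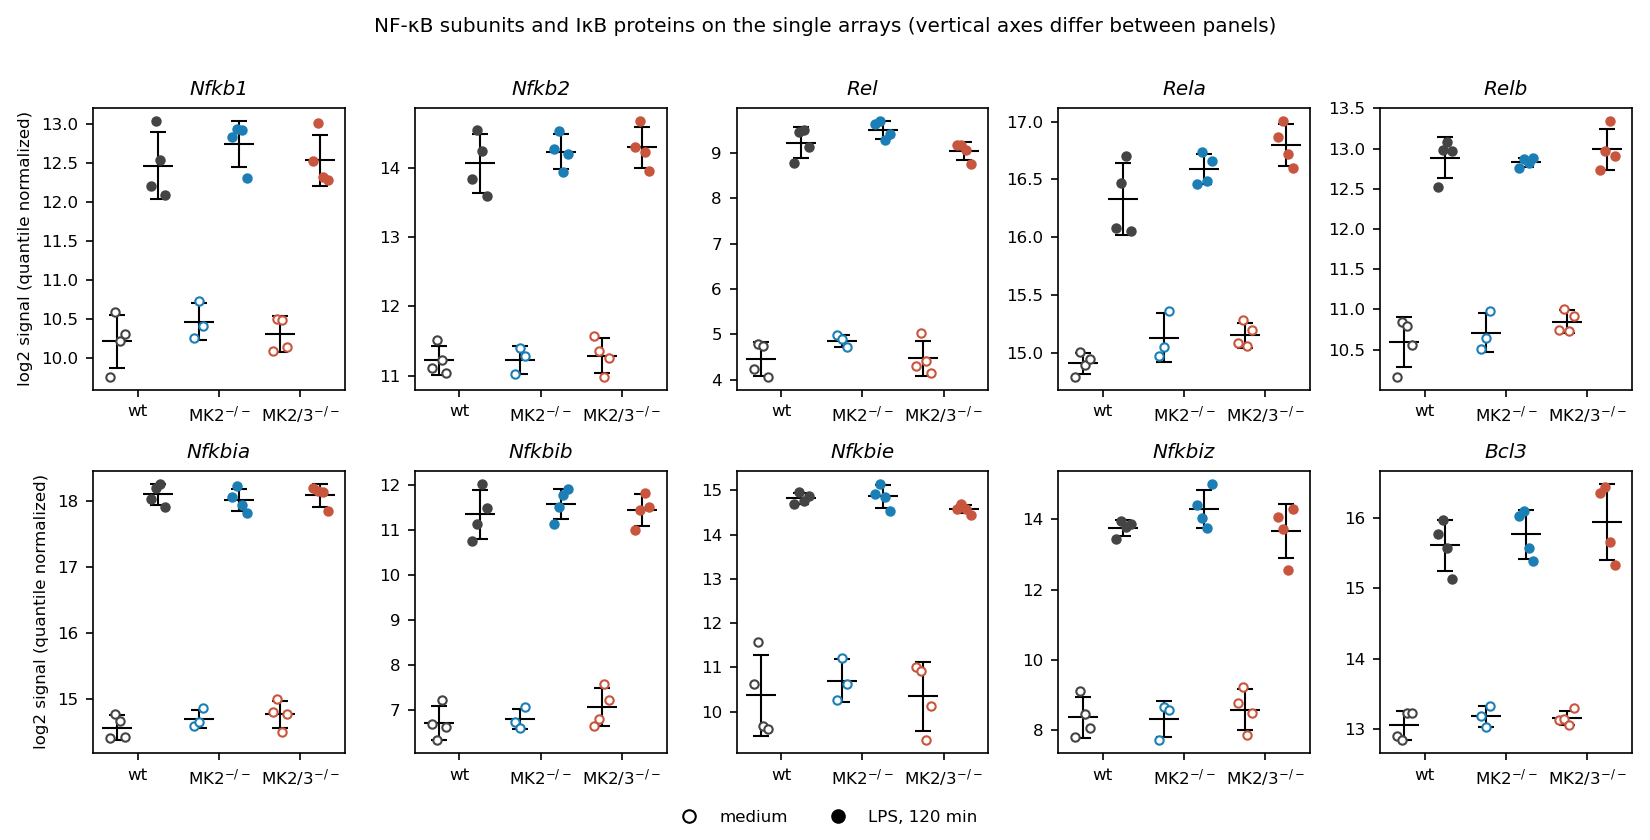
Quantile normalized log2 signal of the 10 members on each of the 23 arrays, with open points for medium, filled points for LPS at 120 min, and bars for the mean and SD of 3 or 4 arrays (vertical axes differ between panels). In all panels the LPS arrays of a genotype lie above its medium arrays, and the 3 genotypes lie close together within a treatment.

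Rel encodes c-Rel, a subunit with a transactivation domain that is prominent in blood cells. In wt cells its log2 signal was 4.23, 4.79, 4.75 and 4.06 in medium and 8.78, 9.46, 9.51 and 9.13 after LPS. In MK2-/- cells it was 4.98, 4.89 and 4.72 in medium and 9.64, 9.70, 9.28 and 9.42 after LPS. In MK2/3-/- cells it was 4.30, 5.03, 4.41 and 4.15 in medium and 9.16, 9.17, 9.05 and 8.75 after LPS. The medium arrays were thus dim and the LPS arrays bright throughout, with a wide gap between them. Rel rose by 4.77 ± 0.21 log2 (SE, n = 4 and 4) in wt, 27.2-fold, with a limma adjusted p of 5.01e-12, and by 4.65 ± 0.23 in MK2-/- and 4.56 ± 0.21 in MK2/3-/-. With normexp background correction, which lifts dim signals, the rise in wt was 2.99, still past the threshold.

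Nfkb2 encodes p100, which both holds dimers in the cytoplasm and is processed to the DNA-binding subunit p52. Its signal in wt was 11.11, 11.52, 11.23 and 11.04 in medium and 13.84, 14.56, 14.25 and 13.60 after LPS. On the MK2-/- arrays it was 11.02, 11.40 and 11.28 in medium and 14.28, 14.54, 13.95 and 14.20 after LPS. On the MK2/3-/- arrays it was 11.57, 11.36, 10.98 and 11.25 in medium and 14.30, 14.69, 14.24 and 13.96 after LPS. Medium arrays of the 3 genotypes overlapped, and so did the LPS arrays. The gene rose by 2.84 ± 0.20 in wt (adjusted p 5.30e-09), 3.01 ± 0.22 in MK2-/- and 3.01 ± 0.20 in MK2/3-/-.

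Relb encodes RelB, the usual partner of p52. Its LPS arrays lay between 12.52 and 13.35 and its medium arrays between 10.16 and 11.01 over all genotypes. Relb rose by 2.30 ± 0.17 in wt (adjusted p 6.19e-09), by 2.12 ± 0.18 in MK2-/- and by 2.14 ± 0.17 in MK2/3-/-. Nfkb1 encodes p105, the precursor of p50, the partner of RelA in the classical dimer. Over all genotypes the medium arrays lay between 9.75 and 10.73 and those with LPS between 12.09 and 13.03. The rise was 2.25 ± 0.23 in wt (adjusted p 6.05e-07), 2.28 ± 0.25 in MK2-/- and 2.24 ± 0.23 in MK2/3-/-.

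Rela encodes p65, the main transactivating subunit of the classical dimer, and was bright already in medium. Wt cells gave 14.79, 15.01, 14.89 and 14.95 in medium and 16.08, 16.47, 16.70 and 16.05 after LPS. MK2-/- cells gave 14.97, 15.05 and 15.36 in medium and 16.46, 16.74, 16.49 and 16.66 after LPS. MK2/3-/- cells gave 15.08, 15.28, 15.06 and 15.20 in medium and 16.87, 17.01, 16.72 and 16.60 after LPS. Arrays 1 and 4 of wt were the lowest after LPS, and every medium array lay below them. The change of Rela was the smallest of the 10 in each genotype: 1.42 ± 0.14 in wt (2.67-fold, adjusted p 6.35e-07), 1.46 ± 0.16 in MK2-/- and 1.65 ± 0.14 in MK2/3-/-.

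Nfkbia encodes IκBα, the classical inhibitor that is degraded first and remade quickly as an NF-κB target. Medium arrays of wt stood at 14.41, 14.78, 14.67 and 14.42 and LPS arrays at 18.04, 18.21, 18.27 and 17.92. For MK2-/- they stood at 14.60, 14.65 and 14.86 in medium and 18.06, 18.24, 17.95 and 17.83 after LPS. For MK2/3-/- they stood at 14.80, 15.01, 14.50 and 14.78 in medium and 18.21, 18.16, 18.15 and 17.85 after LPS. All 12 LPS arrays thus fell within a narrow band, and array 4 was the lowest in each genotype. Nfkbia rose by 3.54 ± 0.14 in wt (11.6-fold), with the lowest adjusted p of the members, 8.98e-13, by 3.32 ± 0.15 in MK2-/- and by 3.32 ± 0.14 in MK2/3-/-.

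Nfkbib encodes IκBβ, an inhibitor that turns over more slowly, and had 3 probes. On the probe used, the medium arrays of wt were at 6.70, 6.34, 7.23 and 6.62 and the LPS arrays at 10.77, 11.14, 12.04 and 11.50. Medium arrays of MK2-/- were at 6.74, 6.61 and 7.07 and LPS arrays at 11.15, 11.53, 11.78 and 11.92. Medium arrays of MK2/3-/- were at 6.66, 6.80, 7.58 and 7.23 and LPS arrays at 11.00, 11.45, 11.84 and 11.52. Array 3 of wt and of MK2/3-/- was the highest of its group in both treatments. Nfkbib rose by 4.64 ± 0.27 in wt (adjusted p 3.10e-10), by 4.79 ± 0.30 in MK2-/- and by 4.38 ± 0.27 in MK2/3-/-. The size depended on the probe, since the other 2 gave 3.20 and 2.87 in wt, both past the threshold.

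Nfkbie encodes IκBε, an inhibitor that acts with a delay in feedback. It was at 10.62, 11.57, 9.67 and 9.62 in wt medium and 14.70, 14.96, 14.75 and 14.88 after LPS. In MK2-/- it was at 10.26, 11.21 and 10.62, then 14.92, 15.15, 14.85 and 14.54. In MK2/3-/- it was at 11.01, 10.92, 9.36 and 10.12, then 14.57, 14.68, 14.58 and 14.45. The medium arrays scattered widely, with an SD of 0.92 in wt, while the LPS arrays lay close together, with an SD of 0.12. Nfkbie rose by 4.45 ± 0.37 in wt (adjusted p 4.71e-08), by 4.17 ± 0.40 in MK2-/- and by 4.22 ± 0.37 in MK2/3-/-.

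Nfkbiz encodes IκBζ, an atypical nuclear IκB that works as a coactivator of secondary response genes such as Il6. Its medium values in wt were 7.81, 9.13, 8.47 and 8.06 and its LPS values 13.44, 13.96, 13.78 and 13.87. MK2-/- had 7.72, 8.67 and 8.57 in medium and 14.40, 14.05, 13.76 and 15.02 after LPS. MK2/3-/- had 8.77, 9.24, 7.86 and 8.49 in medium and 14.06, 13.72, 12.55 and 14.30 after LPS. MK2/3-/- array 3 was the lowest of its genotype under both treatments, and its LPS value was the lowest of all LPS arrays. Nfkbiz changed most of the 10 in each genotype, by 5.40 ± 0.38 in wt (42.2-fold, adjusted p 4.49e-09), 5.99 ± 0.41 in MK2-/- and 5.07 ± 0.38 in MK2/3-/-. In the methods' t-test on linear values Nfkbiz in MK2-/- was not called, with an adjusted p of 0.0596, which leaves 9 members there.

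Bcl3 encodes another nuclear IκB, which binds p50 and p52 homodimers. Its signal was 12.84 to 13.33 on the medium arrays and 15.13 to 16.44 on the LPS arrays of all genotypes. Bcl3 rose by 2.56 ± 0.23 in wt (adjusted p 1.27e-07), by 2.59 ± 0.25 in MK2-/- and by 2.79 ± 0.23 in MK2/3-/-.

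**Figure D2:**
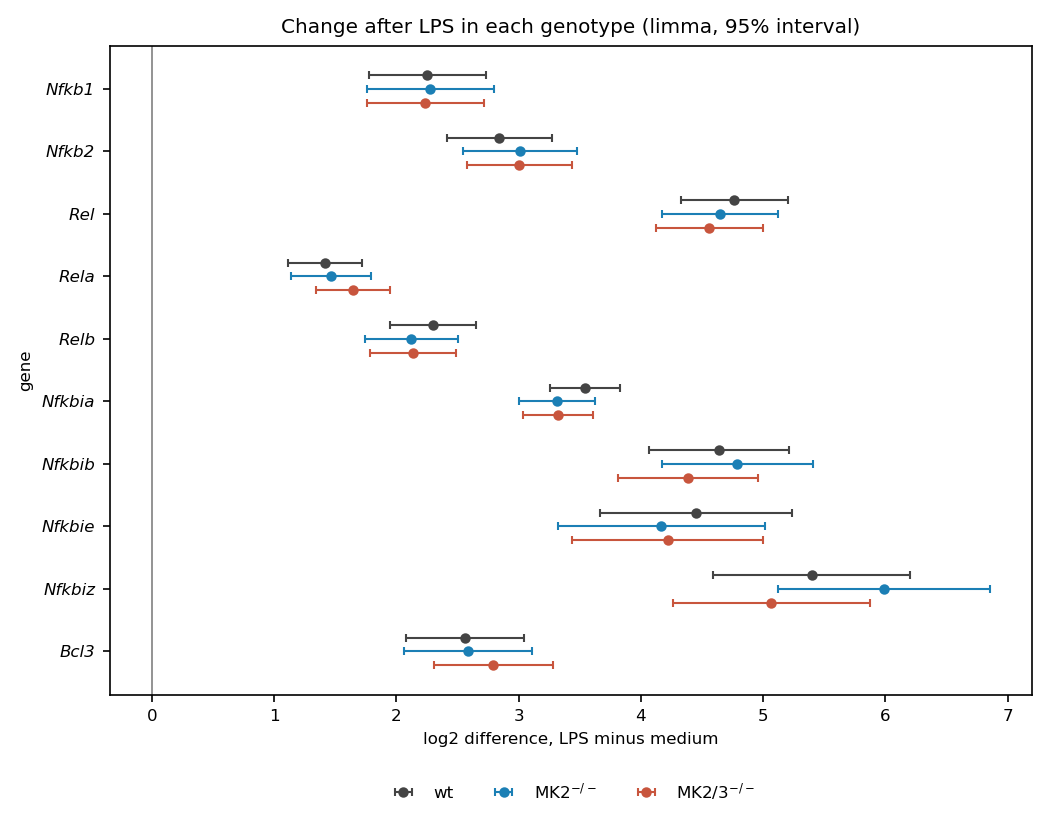
Log2 difference between LPS and medium for each member in the 3 genotypes, with its 95% interval from limma (horizontal axis, log2 units). Every interval lies above 0, from 1.42 for Rela to 5.40 for Nfkbiz in wt, and the genotypes' intervals overlap for each gene.

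Probes of the same gene changed in the same direction. The second probes of Nfkb1 and Relb gave 2.10 and 2.26 in wt, beside 2.25 and 2.30 on the probes used. Each of the 14 probes was called higher after LPS in each genotype, and 0 of the 14 were called between genotypes. The rule takes the probe with the largest rise in wt, which favours large values there. Rela varied least between arrays of a group (median SD over the 6 groups 0.155) and Nfkbiz most (0.56). The median SD of the members in wt was 0.325 in medium and 0.325 after LPS, beside 0.275 and 0.385 for all genes. Over the 23 arrays the members' signals correlated pairwise with r from 0.936 (Rela and Nfkbie) to 0.992 (Rel and Nfkbia), as a description over arrays that share the treatment contrast.

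After LPS, the comparisons between genotypes ask whether loss of MK2, or of both kinases, changes the level of these genes. In MK2-/- against wt, 0 members were called by limma, beside 0.0302% of all genes, and 0 had a p under 0.05 before adjustment, as 7.48% of all genes did. In MK2/3-/- against wt, 0 members were called, beside 1.64% of all genes, and 1 (Rela) had an unadjusted p under 0.05, as 13.5% of all genes did. In MK2/3-/- against MK2-/-, 0 members were called, beside 0.158%, and 1 (Rel) had an unadjusted p under 0.05, as 7.94% of all genes did. The methods' t-test on log2 values also called 0 members in each, with 0, 2 and 1 before adjustment, beside 5.4%, 9.34% and 6.6% of all genes. Groups did not overlap for 0 members (3.72% of all genes), for 1 member (5.83%) and for 1 member (5.15%), shares that leave these counts near the background. The members' median difference was 0.21, 0.08 and -0.04, beside 0.01, 0.01 and -0.01 for all genes. These comparisons share their arrays in pairs.

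Rela had the lowest limma p between genotypes. Its MK2/3-/- arrays after LPS, 16.60 to 17.01, overlapped with wt, where array 3 stood at 16.70 and arrays 1 and 4 at 16.08 and 16.05. The difference was 0.47 (95% interval 0.17 to 0.78), with 4 of 4 MK2/3-/- arrays above the wt mean, a limma p of 0.00384 and an adjusted p of 0.114, and the exact two-sided permutation p was 0.0571. The order of the means was MK2/3-/- (16.80), MK2-/- (16.59) and wt (16.33), and neighbours in it differed by 0.21 (-0.09 to 0.51) and 0.26 (-0.04 to 0.57). Without wt LPS array 3 the difference was 0.60 with an adjusted p of 0.0326, the lowest over all settings, where the p ranged from 0.0326 to 0.726. The wt arrays low in Rela, 1 and 4, had the higher stromal sums of their group. In the knockouts array 4 had the highest sum of its group, and its Rela was the second highest in MK2-/- (16.66) and the lowest in MK2/3-/- (16.60). Without the 8 arrays with a stromal sum above 30000, a choice made after seeing the data, the difference was 0.28, with an adjusted p of 0.726. Those 8 include the wt LPS arrays lowest in Rela, 1 and 4, and the lowest MK2/3-/- LPS array, 4. The value thus depends on that choice, and a part of the stromal signal in the Rela difference was not tested.

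Rel after LPS was lower in MK2/3-/- cells, 8.75 to 9.17, than in MK2-/- cells, 9.28 to 9.70, with no overlap, and wt cells, 8.78 to 9.51, overlapped both. The difference was -0.47 (95% interval -0.91 to -0.04), with an adjusted p of 0.573 in limma and an exact two-sided permutation p of 0.0286. Nfkbie after LPS was lower in MK2/3-/- cells, 14.45 to 14.68, than in wt cells, 14.70 to 14.96, on every array. That difference was -0.25 (95% interval -1.04 to 0.53), with a limma adjusted p of 0.843 and an exact two-sided permutation p of 0.0286. The limma interval is wide because 1 spread is estimated over all groups, and the medium arrays of Nfkbie scatter. Nfkbia differed little between genotypes after LPS, by -0.09 (-0.38 to 0.20) in MK2-/- and by -0.02 (-0.31 to 0.27) in MK2/3-/- against wt. For Nfkbiz the differences had wide intervals: 0.54 (-0.26 to 1.35), -0.11 (-0.91 to 0.70) and, in MK2/3-/- against MK2-/-, -0.65 (-1.45 to 0.15). The remaining members, Nfkb1, Nfkb2, Relb, Nfkbib and Bcl3, differed by -0.21 to 0.34 in the 3 comparisons, with adjusted p from 0.573 to 1.00.

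**Figure D3:**
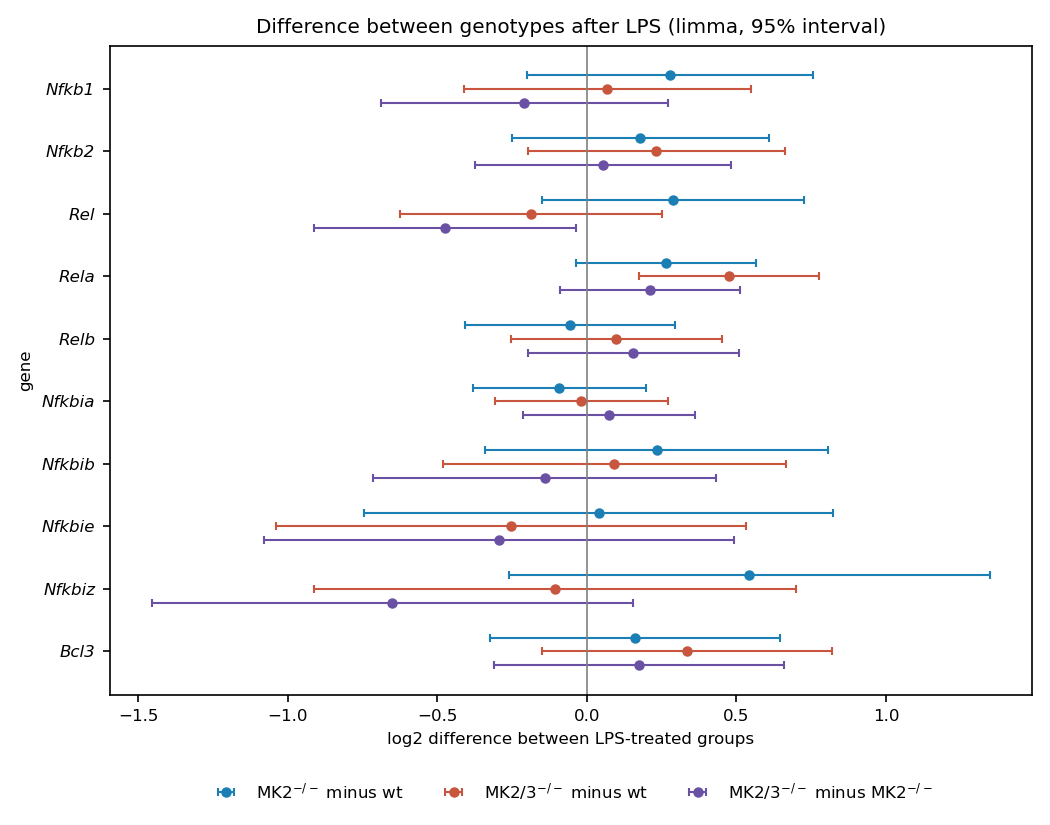
Log2 difference between genotypes after LPS for each member, with its 95% interval from limma (horizontal axis, log2 units), for the 3 pairs of genotypes. Intervals include 0 except for Rela in MK2/3-/- against wt (0.17 to 0.78) and Rel in MK2/3-/- against MK2-/- (-0.91 to -0.04), and neither passed the adjustment over all genes.

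In medium, the same comparisons ask whether the resting levels differ. By limma 0 members were called in MK2-/- against wt, in MK2/3-/- against wt and in MK2/3-/- against MK2-/-, beside 0.00754%, 0.0792% and 0.0453% of all genes. Before adjustment 0 members had a limma p under 0.05 in each, as 3.4%, 4.66% and 3.62% of all genes did. The methods' t-test on log2 values gave 0, 1 and 0 before adjustment, beside 5.44%, 4.91% and 4.28% of all genes, and 0 after it. Groups did not overlap for 0, 1 and 0 members, beside 7.01%, 4.05% and 6.45% of all genes. The 1 member was Rela, with every MK2/3-/- medium array (15.06 to 15.28) above every wt medium array (14.79 to 15.01). Its difference was 0.24 (95% interval -0.06 to 0.55), with a limma adjusted p of 1.00 and an exact two-sided permutation p of 0.0286. Rel in medium differed by 0.41 (-0.07 to 0.88) in MK2-/- against wt, and Nfkbib by 0.35 (-0.23 to 0.92) in MK2/3-/- against wt.

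Whether the LPS response itself differs between genotypes was tested as an interaction. By limma 0 members were called for MK2-/- and wt (0.00377% of all genes), for MK2/3-/- and wt (0.0113%) and for MK2/3-/- and MK2-/- (0%). At an unadjusted limma p under 0.05 the counts were also 0, beside 1.92%, 4.55% and 2.9% of all genes, and the methods' t-test does not cover interactions. The widest differences of response were those of Nfkbiz, 0.59 (-0.59 to 1.77) for MK2-/- less wt, -0.33 (-1.47 to 0.81) for MK2/3-/- less wt and -0.92 (-2.10 to 0.26) for MK2/3-/- less MK2-/-. For Nfkbia the intervals were narrower, -0.22 (-0.65 to 0.20), -0.22 (-0.63 to 0.19) and 0.01 (-0.42 to 0.43).

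Beside the members stand the other genes of the pathway. Of 10 genes for IκB kinases and their activators, 5 rose and 2 fell in wt, 5 and 2 in MK2-/-, and 6 and 2 in MK2/3-/-, with median changes of 0.49, 0.68 and 0.58. The number that rose depended on the processing, from 1 to 7, 3 to 7 and 3 to 7 over 38 alternatives. In wt the calls of Ikbkg and Map3k7, named after their values were seen, were lost under 28 and 9 of them. Of all genes 8.78%, 9.98% and 12.9% were called lower. Tab1, an adaptor of the kinase TAK1, fell by 3.01 in wt (log2 change -3.01) and Map3k14, the NIK kinase that triggers p100 processing, changed by -0.90. Ikbke, an IκB kinase relative, rose by 2.48 and Tab2, another TAK1 adaptor, by 1.42. Of 10 genes for IκB ubiquitination, 2 rose and 1 fell in wt, 2 and 1 in MK2-/-, and 4 and 2 in MK2/3-/-, with medians of 0.19, 0.27 and 0.40. Called in either direction were thus 3, 3 and 6 of the 10, beside 17%, 18.4% and 24.7% of all genes. Those past the threshold in wt were Fbxw11, which encodes a receptor of the IκB ubiquitin ligase (1.19), and the ubiquitin-conjugating enzyme genes Ube2d3 (0.69) and Cdc34 (-0.41). These counts rest on the probe with the largest rise in wt, which can hide a fall. On 1 of its 3 probes, not the one used, Rbx1 changed by -0.89, -1.28 and -1.15 (limma adjusted p 0.00432, 0.000308 and 0.000295). On the probe used it was called only in MK2/3-/- (-0.38, limma adjusted p 0.0054). Of 12 feedback inhibitors, 6 rose and 2 fell in wt, 7 and 2 in MK2-/-, and 7 and 3 in MK2/3-/-, with medians of 0.73, 0.68 and 0.72. The most changed in wt were Tnfaip3, the ubiquitin editor A20 (6.78), its partners Tnip3 (4.03) and Tnip1 (3.15), and the ribonuclease gene Zc3h12a (3.82). Among the pathway genes named, the call in wt was lost under 5 of 38 alternatives each for Ube2d3 (adjusted p up to 0.142) and Cdc34 (up to 0.965), under 2 for Map3k14 (up to 0.0532) and under 1, the methods' t-test on linear values, for Tab2 (0.0918).

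Known NF-κB targets, 15 of 16 matched by accession (Il12b was not), all rose in each genotype, with medians of 5.88, 5.40 and 5.71. The MK2-/- median is the value of Irf1, whose probe was above background on 12 of 23 arrays, so its size is uncertain. The other Irf1 probe, above background on 23, gave 3.70 there. The cytokine genes Il6 (11.67), Cxcl1 (10.37), Il1b (8.63) and Tnf (8.02) had the largest measured changes in wt. The size and rank of that of Il6 are uncertain, since it was above background on 2 of 4 wt medium arrays, and it was not called in wt in the methods' t-test on linear values (adjusted p 0.195). Nfkbid, for the nuclear relative IκBNS, rose by 2.55 in wt, 2.61 in MK2-/- and 2.69 in MK2/3-/-, where the methods' t-test on linear values did not call it (adjusted p 0.0982). Nfkbil1, named for its likeness to the family, changed by -0.53, -0.77 and -0.61, past the threshold in each, but not with 75th percentile scaling, where its change was -0.34 (adjusted p 0.266), -0.58 (0.0526) and -0.42 (0.127). In wt its call was also lost with only the compared groups fitted (0.0723), in the methods' t-test (0.0836 on log2 and 0.103 on linear values), without the 8 arrays high in stromal signal (0.161) and on leaving out any 1 of 6 arrays (0.0533 to 0.105). In MK2-/- it was lost without the arrays high in stromal signal (0.0536), and in MK2/3-/- with only the compared groups fitted (0.0783) and in the methods' t-test (0.0923 and 0.0863). Between genotypes, 1 of these 49 pathway genes was called, in MK2/3-/- against wt after LPS. There 1.64% of all genes were called, which leaves this count near the background. Over 38 alternatives, 0 to 1 of the targets were called lower in MK2/3-/- after LPS, both against wt and against MK2-/-. Tnip3 after LPS stood at 13.11, 13.08, 12.83 and 12.63 in MK2/3-/- and at 11.44, 11.80, 12.40 and 12.10 in wt, with no overlap. Its difference was 0.98 ± 0.24 (limma adjusted p 0.0434), but its second probe gave 0.44 (adjusted p 0.543), and the call was lost under 5 alternatives besides that probe and on leaving out any 1 of 15 arrays, with which omitted the difference was 0.82 to 1.03 and the adjusted p 0.0517 to 0.17. These were wt LPS arrays 1, 2 and 4, the 4 wt medium arrays, MK2-/- LPS array 3, MK2-/- medium array 3, MK2/3-/- LPS arrays 1, 2 and 3, and MK2/3-/- medium arrays 2, 3 and 4.

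Some genes followed the members most closely over the 23 arrays among 15931 that were well above background throughout at least 1 group. The likeness is Pearson's r, and since all arrays share the treatment contrast, r is also given for deviations from the group means. Closest to Nfkb1 were Pspc1 (0.988, within groups 0.837), Malt1 (0.987, 0.755) and Aebp2 (0.987, 0.871), and to Nfkb2 Myd88, Ifi211 and Dusp2 (each 0.993, within groups 0.886, 0.859 and 0.806). Rel was closest to Tnip1 (0.993, within groups 0.387), Nfkbia (0.992, 0.683) and Tnfaip3 (0.992, 0.317), and Rela to Crtc2 (0.99, within groups 0.797), Tmem243 (0.984, 0.755) and Swap70 (0.984, 0.672). Relb was closest to Hcar2 (0.992, 0.731), Rapgef2 (0.989, 0.653) and Dyrk2 (0.989, 0.733), and Nfkbib to Rapgef2 (0.991, 0.7), Dyrk2 (0.991, 0.748) and Rasip1 (0.987, 0.748), which share 2 genes. Nfkbia was closest to Socs3 (0.996, 0.528), Tnfaip3 (0.995, 0.52) and Dusp2 (0.995, 0.708), and Nfkbie to Gadd45b, Tnf and Ehd1 (each 0.988, within groups 0.722, 0.785 and 0.852). Nfkbiz was closest to Tnf (0.989, 0.682), Plek (0.988, 0.667) and Zc3h12a (0.988, 0.533), and Bcl3 to Mtmr14 (0.992, 0.803), Has1 (0.991, 0.833) and AK042931 (0.99, 0.857).

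Because the members rose together, their promoter windows were searched for the letters of NF-κB motifs. RefSeq windows (build GRCm38.p6), from 250 bases before to 50 after a gene start, were given for 7 of the 10 members, in 9 windows, and not for Nfkb1, Relb and Nfkbiz. Both strands were searched for the κB consensus and for GGNNTTTCC, and matches of the one can overlap matches of the other. The κB consensus was present in windows of 5 members (Nfkb2, Rel, Nfkbia, Nfkbie and Bcl3), and GGNNTTTCC in those of 4 of them (Nfkb2, Rel, Nfkbia and Bcl3). Nfkbib and Rela held neither, and in wt they rose by 4.64 and 1.42. Whether a match goes with the size of the rise was not tested. Of all 27025 genes with a window, 9.55% held the first, 6.62% the second and 14.4% either. A match is a description of letters. Windows are shown for Nfkbia and Rel, with the lowest adjusted p of the inhibitors and the subunits. Also shown are the first of 3 Nfkb2 windows and that of Rela, the member without a match that changed less. Capitals mark the matches, and the gene start follows base 250. The Nfkbia window (chr12:55492598-55492897, minus strand) has matches from bases 73 and 222, the Rel window (chr11:23770920-23771219, minus strand) from 159 and 160, the Nfkb2 window (chr19:46304487-46304786, plus strand) from 212, 213, 240 and 241, and the Rela window (chr19:5637291-5637590, plus strand) has none.
Nfkbia: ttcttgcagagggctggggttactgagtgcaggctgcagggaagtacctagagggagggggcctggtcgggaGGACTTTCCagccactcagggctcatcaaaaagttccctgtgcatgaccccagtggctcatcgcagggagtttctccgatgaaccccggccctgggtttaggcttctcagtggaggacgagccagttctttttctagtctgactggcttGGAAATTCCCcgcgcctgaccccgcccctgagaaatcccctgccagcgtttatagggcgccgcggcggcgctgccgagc
Rel: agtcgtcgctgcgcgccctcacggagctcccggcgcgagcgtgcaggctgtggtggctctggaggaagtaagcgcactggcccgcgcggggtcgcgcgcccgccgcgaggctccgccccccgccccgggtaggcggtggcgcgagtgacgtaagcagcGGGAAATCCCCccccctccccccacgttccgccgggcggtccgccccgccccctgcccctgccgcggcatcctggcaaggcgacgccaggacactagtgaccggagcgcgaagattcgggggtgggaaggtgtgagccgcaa
Nfkb2: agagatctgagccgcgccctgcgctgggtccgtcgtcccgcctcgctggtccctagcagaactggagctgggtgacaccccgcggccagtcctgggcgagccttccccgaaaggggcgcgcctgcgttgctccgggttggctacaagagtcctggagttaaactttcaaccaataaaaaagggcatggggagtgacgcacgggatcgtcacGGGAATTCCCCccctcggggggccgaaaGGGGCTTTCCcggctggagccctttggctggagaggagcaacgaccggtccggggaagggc
Rela: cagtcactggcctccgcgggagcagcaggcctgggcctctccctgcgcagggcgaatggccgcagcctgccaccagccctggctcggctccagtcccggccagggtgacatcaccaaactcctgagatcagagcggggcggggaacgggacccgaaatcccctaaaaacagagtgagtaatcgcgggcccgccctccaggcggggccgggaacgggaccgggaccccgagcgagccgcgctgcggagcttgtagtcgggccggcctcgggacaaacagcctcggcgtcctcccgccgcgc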

How the data were processed

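The authors hybridised Cy3-labelled cRNA, and the deposited scanner files hold intensity values that, per the file headers, Feature Extraction 11.0.1.1 background-subtracted and, on all but 2 arrays, corrected for a spatial gradient. The deposited value table holds log2 values of the authors and served as an alternative. From the scanner files, control spots were left out, non-uniform and outlier spots set missing, spots of a probe averaged, and log2 intensities quantile normalized. Accessions were named through RefSeq gene tables (27509 of 29150 RefSeq probes matched). Each gene took the probe with the largest LPS rise in wt, as the methods describe. limma 3.58.1 in R 4.3.3 fitted all 6 groups in 1 model, with two-sided p-values adjusted by Benjamini-Hochberg over 26512 genes, called under 0.05. Exact tests permuted arrays without regard to culture. The adjustment of p-values from the methods' t-test was added here.

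LPS and medium arrays of a genotype with matching number and age are taken as 1 culture (MK2-/- medium replicate 3 as culture 4, by age). Over 12735 genes above background on all arrays, deviations from group means correlated within each of 11 such pairs (0.360 to 0.774, median 0.490). Over all genes 10 of 11 exceeded 0.1.

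Members and lists were chosen with earlier results of these data known. Genes named are the members, both kinases, up to 4 genes per pathway list with the largest wt change past the threshold, any called between genotypes, Nfkbid and Nfkbil1, the 3 genes most correlated with each member, the macrophage markers, and from other marker lists the gene with the highest mean signal. Ikbkg, Map3k7, Rbx1, Irf1 and the other stromal markers were named after their values were seen, and no gene of the B cell list was named.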

Additional observations from a re-analysis of the deposited data

Results flagged for a closer look

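A pair of members had 1 array of a group standing apart from the other 3, by the gap to its nearest neighbour over the whole range (Dixon's ratio, 95% level), among 50 groups examined, where chance gives about 1 in 20. Nfkb1 on MK2-/- LPS array 4 was 12.3, and the other arrays of that group lay between 12.83 and 12.93. Nfkbia on MK2/3-/- LPS array 4 was 17.85, and the others lay between 18.15 and 18.21. The LPS response of Mapkapk3, the gene of MK3, differed between MK2/3-/- and wt cells by limma's interaction test (-1.68, adjusted p 0.0115). That call was lost with only the compared groups fitted (-1.68, adjusted p 0.0724) and without the arrays with a stromal sum above 30000 (-1.75, adjusted p 0.435). MK2/3-/- cells lack MK3, so a difference in the response of its gene cannot be told apart from the deletion.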

How the results depend on the processing

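Each of the 10 members kept its rise with LPS past the threshold in each genotype under every alternative run, except Nfkbiz in MK2-/- in the methods' t-test on linear values (9 members, adjusted p 0.0596). Before the adjustment, which was added here, that t-test gave 10 members with a p under 0.05. Between genotypes the count of members called stayed 0 except in MK2/3-/- against wt after LPS, where leaving out single arrays gave 0 to 1, the 1 being Rela without wt LPS array 3 (0.60, adjusted p 0.0326), and the cause was not tested. Over 4500 member values under alternatives, 0 called values reversed, 1 became called and 1 was lost, and 180 of 3359 uncalled values changed sign. With the replicate block (culture as a random block, correlation 0.239, or the culture number as a fixed block) the counts of members called were 10, 10 and 10 for LPS and 0 in each genotype comparison and interaction, so it changed no call of a member. Arrays with the same number in other genotypes correlated with a median of 0.370 (17 of 22 pairs above 0.1), against -0.116 for other numbers (15 of 66), and the labels do not say what a number shares. Slide as a block was not run, since each genotype has a slide of its own. Under 75th percentile scaling the median of all genes shifted by 0.147, 0.197 and 0.063 with LPS in wt, MK2-/- and MK2/3-/-, and by 0.15 in MK2/3-/- against wt after LPS, to which the value of Rela there, 0.71, is relative. In MK2/3-/- against MK2-/- after LPS the shift was 0.128, and in medium it was 0.178 for MK2/3-/- against wt and 0.165 against MK2-/-. With normexp the median signal stood in for the mean, which the files lack. Leaving out MK2/3-/- medium arrays 1 and 2 together, or the 8 arrays with a stromal sum above 30000, was chosen after seeing the data and changed no member's call. Over the alternatives, the genes called higher in wt, MK2-/- and MK2/3-/- numbered 1 to 7, 3 to 7 and 3 to 7 of the kinase list, 1 to 4, 2 to 4 and 3 to 5 of the ubiquitination list, 5 to 8, 5 to 7 and 4 to 8 of the feedback list and 12 to 15, 11 to 15 and 13 to 15 of the targets. Those called lower numbered 1 to 2, 2 and 1 to 2 of the kinase list and 0 to 2 in each genotype of the ubiquitination list. They numbered 0 to 3, 0 to 2 and 1 to 3 of the feedback list and 0 of the targets. The cause of these ranges was not tested. All 10 members passed the filter on dim probes, which kept the 16015 genes well above background on every array of at least 1 group. A gene dim in medium could thus pass. The number of arrays limits the precision.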
